A study of Homo sapiens with 6 samples.

Results

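The NADPH oxidase gene NOX4, the gene of its membrane partner CYBA, the transcription factor gene NFE2L2 and 7 antioxidant genes under the control of NRF2 were examined in HK-2 cells. HK-2 is an immortalised human line made from the epithelium of the proximal tubule. The 7 were HMOX1, NQO1, GCLC, GCLM, TXNRD1, SRXN1 and SLC7A11. The 10 genes were chosen by name, with the entry on a primary chromosome, out of 41497 named entries in the count tables. Each of the 10 names had a single entry. RNA-seq was performed on 3 control and 3 TGF-β1 libraries of wild-type cells, the former from untreated cells and the latter from cells given TGF-β1 for 24 hours, to measure how this profibrotic cytokine changes transcription in tubular cells. The cells were maintained with fetal bovine serum. The study's methods describe its TGF-β treatments as serum-free, and give a dose for these treatments in general. Neither serum in the control cultures nor a dose for the sequenced libraries in particular is given in the sources used here. The labels do not say whether replicates came from separate cultures, so p-values measure the spread between these libraries, which may be technical.

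NOX4 is a membrane enzyme that passes electrons from NADPH to oxygen and releases mainly hydrogen peroxide, and it is a well-known source of oxidants in kidney tubules and in TGF-β signaling. It needs p22phox, the product of CYBA, to be stable and active. Cells answer oxidants through NRF2, the product of NFE2L2. KEAP1 and its ubiquitin ligase normally send NRF2 to the proteasome, and when KEAP1 is modified by oxidants or electrophiles, NRF2 enters the nucleus, pairs with small MAF proteins and binds antioxidant response elements at genes for heme breakdown, quinone reduction, glutathione synthesis and thioredoxin recycling.

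The letters before the transcription start were read from RefSeq promoters (GRCh38.p14), each with 250 bases before and 50 bases after a start. These windows were found for 8 of the 10 genes, 12 windows in all. HMOX1 and SLC7A11 were not matched. TGACNNNGC, the core of the antioxidant response element, was searched on both strands and was present in 13.3% of 35116 promoters. Among the 12 windows it was found in GCLM once, in the first TXNRD1 window at 2 places and in the second TXNRD1 window once. CAGAC, the letters that SMAD proteins bind, was found in 45.3% of all promoters, and in the first window of NOX4 at 3 places, the first window of NFE2L2 at 2 places and the window of SRXN1 once. TGANTCA, the AP-1 site, was found in 7.71% of all promoters and in none of the 12 windows. A match is a description of letters, not a bound site. The capitals in the sequences mark the TGACNNNGC matches, printed as their reverse complement, in GCLM (chr1:93909431-93909680, minus strand) and in the second window of TXNRD1 (chr12:104286782-104287031, plus strand), since these genes carry the NRF2-type letters, and the CAGAC matches on either strand in the first window of NOX4 (chr11:89491376-89491625, minus strand), since TGF-β1 is the treatment.
GCLM: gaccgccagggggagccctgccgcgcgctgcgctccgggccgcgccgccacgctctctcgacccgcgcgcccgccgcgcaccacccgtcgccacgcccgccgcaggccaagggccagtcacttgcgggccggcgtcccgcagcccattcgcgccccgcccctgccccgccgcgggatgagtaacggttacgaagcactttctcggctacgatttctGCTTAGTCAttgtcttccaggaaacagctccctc
TXNRD1: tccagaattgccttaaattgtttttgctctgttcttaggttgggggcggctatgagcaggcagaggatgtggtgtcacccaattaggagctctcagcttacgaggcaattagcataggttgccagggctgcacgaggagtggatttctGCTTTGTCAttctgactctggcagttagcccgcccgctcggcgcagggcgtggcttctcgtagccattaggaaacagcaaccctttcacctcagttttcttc
NOX4: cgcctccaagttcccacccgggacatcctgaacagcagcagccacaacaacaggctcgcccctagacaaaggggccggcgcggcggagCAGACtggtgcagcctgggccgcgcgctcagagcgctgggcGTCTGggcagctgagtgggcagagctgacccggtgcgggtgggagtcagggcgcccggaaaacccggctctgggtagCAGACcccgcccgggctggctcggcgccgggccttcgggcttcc
The GCLM match lay 34 to 26 bases before the start, on the opposite strand, and the TXNRD1 match 102 to 94 bases before its start, also on the opposite strand. The NOX4 matches began 162, 121 and 44 bases before the start.

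Total counts were 21.94 to 26.91 megacounts (M) per library. Of all genes, 14860 passed the filter on low counts and were tested with the edgeR quasi-likelihood test, with p-values adjusted over all of them. At an adjusted p under 0.05, 6582 genes were called, which is 44.3%, with 3294 higher and 3288 lower after TGF-β1. With total counts only, without TMM scaling factors, the median over all genes shifted by -0.11 in log2 fold change, and the calls were 2134 higher (14.4%) and 4590 lower (30.9%). Leaving out TGF-β1 replicate 1 gave 7196 called genes, more than leaving out any other library. The treatment was visible in all 6 TGF-β response genes used as a check, which rose by log2 fold changes from 1.08 for SKIL to 3.30 for COL1A1. Of 12 proximal tubule markers, 4 were under the filter, among them LRP2 and SLC22A6 with 0 counts in every library, and of the 8 tested 4 rose and 3 fell. Their summed level was 981 to 1046 CPM (counts scaled to a common library size) in control and 1192 to 1377 CPM after TGF-β1. The sum was carried by the general epithelial keratins KRT8 and KRT18, which rose, as did CUBN and AQP1 at low levels, while PAX8, GGT1 and MME fell. PAX8, KRT8, KRT18 and GGT1 were expressed, so the epithelial and renal markers were present and the defining uptake and transport genes LRP2 and SLC22A6 were not detected. Summed fibroblast markers, of which 3 of 6 passed the filter, were at 59.8 to 69.2 CPM in control and 56.8 to 58.1 CPM after TGF-β1, with COL1A2 at most at 1 count. Of the 3 tested, PDGFRB rose, and LUM, which made up most of the sum, and THY1 fell. Endothelial markers summed to 0.858 to 1.6 CPM in control and 0 to 0.0477 CPM after TGF-β1.

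NOX4 (gene-NOX4, GRCh38 chromosome 11, 89324353 to 89589557, minus strand) was listed with 0 counts in all 6 libraries. The libraries held 141.7 M counts of named genes together, 67.9 M in control and 73.8 M after TGF-β1. A count of 0 allows up to 3 counts per library, which corresponds to 0.0593 to 0.0769 TPM. TPM are levels scaled for summed exon length and library size. NOX4 was therefore not detectable at this depth with or without TGF-β1, and no fold change or test could be given. The planned NOX4-to-CYBA ratio and the search for genes with a pattern like that of NOX4 could not be computed for the same reason. Of the named entries, 15553 (37.5%) had 0 counts in every library. Listed genes near NOX4 had few or no counts as well. Of 12 listed genes within 500 kb, GRM5 alone had any counts, from 0 to 5 per library, while CTSC, farther away, had 1272 to 2078. These counts describe single genes, and the state of the region was not tested.

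CYBA (gene-CYBA, chromosome 16, 88643289 to 88651079), which encodes the p22phox partner, was well expressed. Its levels were 272, 272 and 245 CPM in control and 296, 241 and 263 CPM after TGF-β1. The groups overlapped, with the highest and the lowest value both after TGF-β1. The log2 fold change was 0.02 with a 95% interval from -0.15 to 0.19 and an edgeR adjusted p of 0.846. The partner subunit was thus measured with 5516 to 7699 counts per library, and the catalytic subunit with 0.

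NFE2L2 (gene-NFE2L2, chromosome 2, 177230303 to 177265131), the gene of NRF2 itself, was at 105, 109 and 115 CPM in control and at 106, 106 and 102 CPM after TGF-β1. The groups overlapped. The log2 fold change was -0.07, with a 95% interval from -0.19 to 0.05 and an edgeR adjusted p of 0.304. With total counts only it was -0.18 and called lower, with an adjusted p of 0.0229. In TPM, which carry no TMM factor, the groups were apart, at 96.1 to 109 in control and 87.6 to 92.2 after TGF-β1. NRF2 is controlled mainly at the level of the protein, which was not measured here.

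Of the 9 genes that passed the filter, 3 were called, and all 3 were higher after TGF-β1. They were HMOX1, GCLM and GCLC. Over all genes tested, 22.2% were called higher and 44.3% in either direction, and 3 of 9 is 33.3%, a share too near this background to be a result about these genes as a group. With total counts only, 1 was called higher and 2 lower. HMOX1, GCLM and GCLC were also the genes whose CPM did not overlap between groups, beside 27.9% of all genes that were apart and higher and 55.6% that were apart in either direction. The median log2 fold change of the 9 was 0.03, beside 0.006 over all genes. In bulk RNA, fewer cells of a type and less RNA per cell cannot be told apart.

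**Figure D1:**
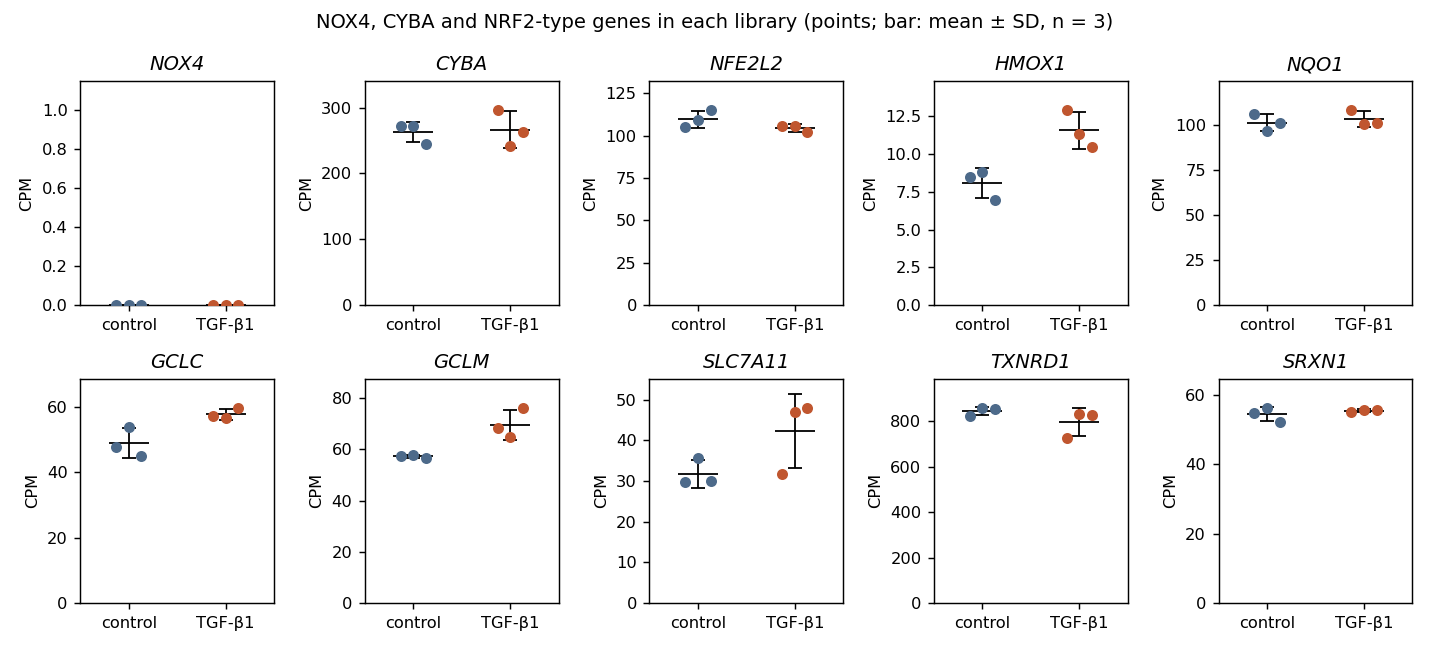
Level of each of the 10 genes in CPM (linear axes from 0) in the 3 control and 3 TGF-β1 libraries, with points for libraries and bars for the mean ± SD. HMOX1, GCLC and GCLM were apart between groups, NOX4 was at 0 in every library, and SLC7A11 had 1 TGF-β1 library, at 31.7 CPM, within the control range.

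HMOX1 (gene-HMOX1, chromosome 22, 35381096 to 35394207) encodes heme oxygenase 1, which splits heme into biliverdin, iron and carbon monoxide and is a classical responder to oxidant injury in tubules. It was at 8.46, 8.79 and 6.95 CPM in control and at 12.9, 11.3 and 10.5 CPM after TGF-β1. Every TGF-β1 library was above every control library. HMOX1 rose 1.43-fold, with a log2 fold change of 0.52 ± 0.12 (SE), a 95% interval from 0.26 to 0.78 and an edgeR adjusted p of 0.00424. It was the largest log2 fold change of the 10 genes with all libraries, from a low base, although without TGF-β1 replicate 1 it was 0.42 and that of SLC7A11 0.57. It was the 1 call that also held with total counts only, at 0.41 with an adjusted p of 0.0145. Leaving out each library in turn gave log2 fold changes from 0.42 to 0.59, all called.

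GCLC and GCLM encode the catalytic and the modifier subunit of glutamate-cysteine ligase, the rate-limiting enzyme of glutathione synthesis. GCLM (gene-GCLM, chromosome 1, 93885199 to 93910370), whose promoter letters are printed above, was at 57.3, 57.9 and 56.7 CPM in control and at 68.2, 64.7 and 76.2 CPM after TGF-β1. The control libraries were close together, and all TGF-β1 libraries lay above them. GCLM rose 1.22-fold, with a log2 fold change of 0.28 ± 0.07 (SE), a 95% interval from 0.13 to 0.43 and an edgeR adjusted p of 0.00559. Scaled by total counts only, the value was 0.17 and the adjusted p 0.0516.

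GCLC (gene-GCLC, chromosome 6, 53497341 to 53545101) was at 47.9, 54.0 and 45.1 CPM in control and at 57.1, 56.5 and 59.7 CPM after TGF-β1. The groups were apart in CPM, with control replicate 2 nearest to the TGF-β1 libraries, but overlapped in TPM, at 40.0 to 47.0 in the controls and 44.4 to 48.4 with TGF-β1. GCLC rose 1.18-fold, with a log2 fold change of 0.24 ± 0.07 (SE), a 95% interval from 0.08 to 0.40 and an edgeR adjusted p of 0.0199. This call was the least stable of the 3. The adjusted p was 0.162 under scaling by library totals. Leaving out single libraries gave 0.0762 without control replicate 1 and 0.0833 without control replicate 3. It was 0.0695 when TGF-β1 replicate 3 was left out.

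The RNA balance between the subunits was compared as the log2 ratio of GCLM to GCLC in TPM, a per-length scale. It was -0.48, -0.64 and -0.41 in the controls, and -0.49, -0.55 and -0.39 with TGF-β1. The means were -0.51 ± 0.12 and -0.47 ± 0.08 (SD, n = 3), and the exact permutation test, two-sided, gave p = 0.7, where the smallest p that 3 against 3 libraries allow is 0.1. On this scale GCLM was below GCLC in every library, while in CPM, without length, GCLM was above GCLC in every library. The order of the RNAs thus depended on the length scaling. A difference in their ratio between groups was not detected, and protein was not measured.

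SLC7A11 (gene-SLC7A11, chromosome 4, 138164097 to 138242349) encodes xCT, which imports cystine in exchange for glutamate and so supplies the cysteine for glutathione. It was at 29.7, 35.8 and 30.0 CPM in control and at 31.7, 47.0 and 48.0 CPM after TGF-β1. TGF-β1 replicates 2 and 3 were above all controls, and TGF-β1 replicate 1 was inside the control range. The log2 fold change was 0.41 ± 0.18 (SE), with a 95% interval from -0.03 to 0.84 and an edgeR adjusted p of 0.114, so it was not called. This value depended on 1 library. Without TGF-β1 replicate 1 the log2 fold change was 0.57 with an adjusted p of 3.5e-05, and DESeq2, with all libraries, gave 0.40 with an adjusted p of 0.0128, where DESeq2 called 19.6% of all genes higher and 38.9% in either direction. Over all alternatives the edgeR, DESeq2 and limma values lay between 0.30 and 0.57, all above 0.

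NQO1 (gene-NQO1, chromosome 16, 69709401 to 69726560) encodes a quinone reductase and is often read as a reporter of NRF2 activity. It was at 106, 96.3 and 101 CPM in control and at 108, 100.3 and 101 CPM after TGF-β1. The groups overlapped. Its log2 fold change was 0.03, with a 95% interval from -0.10 to 0.16 and an edgeR adjusted p of 0.728.

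TXNRD1 (gene-TXNRD1, chromosome 12, 104215779 to 104350307) encodes the cytosolic thioredoxin reductase, a selenoprotein that keeps thioredoxin reduced. It was at 825, 859 and 853 CPM in control and at 726, 834 and 829.9 CPM after TGF-β1. TGF-β1 replicate 1 was the lowest of the 6, and the other TGF-β1 libraries lay within the control range. In TPM the groups were apart, at 634 to 679 in the controls and 506 to 613 with TGF-β1. The log2 fold change was -0.09, with a 95% interval from -0.23 to 0.06 and an edgeR adjusted p of 0.303. Under scaling by total counts only it was -0.19 and called lower, with an adjusted p of 0.0254.

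SRXN1 (gene-SRXN1, chromosome 20, 646615 to 653200) encodes sulfiredoxin, which restores over-oxidised peroxiredoxins. It was at 54.8, 56.2 and 52.2 CPM in control and at 54.9, 55.6 and 55.7 CPM after TGF-β1. In CPM the 3 TGF-β1 libraries lay inside the control range, while in TPM they were below all controls, at 64.5 to 68.9 beside 70.0 to 73.8. The log2 fold change was 0.03, with a 95% interval from -0.10 to 0.15 and an edgeR adjusted p of 0.728. For CYBA, NQO1 and SRXN1 the sign was not settled, since it turned with total counts only to -0.09, -0.08 and -0.08.

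**Figure D2:**
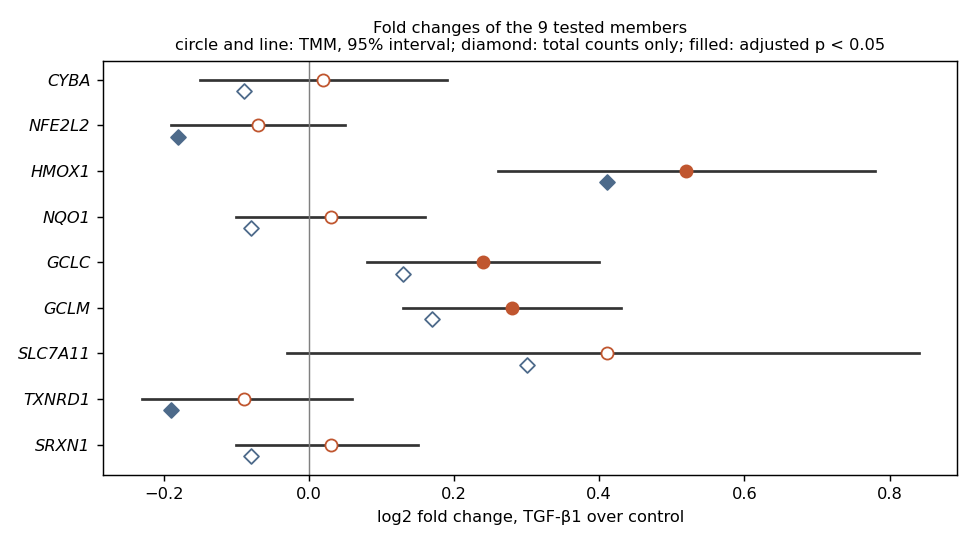
Log2 fold changes, TGF-β1 over control, of the 9 tested genes with TMM scaling (circles, with 95% intervals as lines) and with total counts only (diamonds), filled where the edgeR adjusted p was under 0.05. Total counts only placed every gene lower. HMOX1 stayed called, GCLC and GCLM did not, and NFE2L2 and TXNRD1 were called lower at -0.18 and -0.19.

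The 10 genes covered a wide range of levels per summed exon length. In TPM, the control means were 661 ± 24.2 for TXNRD1, 341 ± 14.7 for CYBA, 134 ± 5.78 for NQO1, 102 ± 6.67 for NFE2L2 and 71.6 ± 2.01 for SRXN1 (SD, n = 3). They were 42.7 ± 3.76 for GCLC, 29.9 ± 0.43 for GCLM, 17.3 ± 1.87 for HMOX1 and 10.8 ± 1.16 for SLC7A11. The order after TGF-β1 was the same, and in both groups the ranges of neighbours in the order did not overlap. On this scale TXNRD1 was the highest of the 10 genes and SLC7A11 the lowest of those detected. In CPM, without length, HMOX1 was the lowest of those detected, at a control mean of 8.07 beside 31.8 for SLC7A11. The lengths sum all annotated exons, so the order of genes in TPM depends on the annotation. The genes called higher were all in the lower part of this order. Levels of genes that share reads with an overlapping gene may be affected, since the strand setting of the counting is not given in the sources used here. EID3, inside TXNRD1, had 19 to 37 counts, and SLC7A11-AS1, antisense to SLC7A11, had 1 to 10, beside 671 to 1136 counts of SLC7A11.

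The other genes of the NADPH oxidases were listed next, since NOX4 is 1 of several catalytic subunits. Of 16 such genes reported here, 10 were under the filter and 3 of these had 0 counts in all libraries. No other catalytic subunit was more than marginally detected. NOX1 and NOX5 had at most 1 count per library, NOX3 at most 3 and DUOX2 had 0. CYBB, the phagocyte oxidase, had 6, 4 and 3 counts in control and 1, 0 and 2 after TGF-β1. DUOX1 passed the filter with 8 to 18 counts and a log2 fold change of -0.11, with a 95% interval from -1.03 to 0.81. POLDIP2, which binds p22phox beside NOX4, had a log2 fold change of 0.02 with a 95% interval from -0.12 to 0.15. CYBC1, a chaperone of the p22phox complex with CYBB, had -0.21 with a 95% interval from -0.39 to -0.02 and an edgeR adjusted p of 0.0678. Of these 6 tested genes, NOXA1 and RAC2 fell and 4 did not pass the test, and the median log2 fold change was -0.16. This is 33.3% called, beside 44.3% of all genes.

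NOXA1, the activator of NOX1, had 32, 34 and 36 counts in control and 0, 5 and 3 after TGF-β1. It fell to a level near the limit of detection, with a log2 fold change of -3.62 ± 0.49 (SE) at an edgeR adjusted p of 0.00016. The size of this fall depended on single libraries, and was -3.01 without TGF-β1 replicate 1 and -4.38 without TGF-β1 replicate 2, called in both cases. RAC2, a small GTPase that activates oxidases, fell from 98.7, 104 and 93.9 CPM to 70.0, 56.5 and 53.0 CPM, a log2 fold change of -0.72 ± 0.10, edgeR adjusted p = 0.00023. RAC1, its widely expressed relative, had a log2 fold change of 0.06 with a 95% interval from -0.05 to 0.18.

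RAC2 is also a gene of leukocytes. Of 5 leukocyte markers, CD3E was at 0 in every library, PTPRC, which marks all leukocytes, had at most 2 counts, CSF1R rose, and CD14 and CD68 fell. Their summed level was 99.2 to 108 CPM in control and 85.9 to 112 CPM after TGF-β1. CD68 made up most of this sum, at 91.9 to 102 CPM in control and 60.9 to 84.5 CPM after TGF-β1. RAC2 had 1111 to 2542 counts per library, and all 6 libraries were of the HK-2 line. The part of other cells in the change of RAC2 was not tested.

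The genes that hold, assist or oppose NRF2 were compared next. Of 14 genes, all were tested, 4 rose and 2 fell, which is 42.9% called beside 44.3% of all genes, a share at the background. With total counts only, 2 were higher and 4 lower. MAFK, a small MAF partner, rose from 38.2, 40.5 and 34.2 CPM to 47.0, 48.5 and 54.7 CPM, a log2 fold change of 0.41 ± 0.08 (SE) at an edgeR adjusted p of 0.00179. RBX1, the RING subunit of the ligase, rose by 0.30 ± 0.07 on the log2 scale with an adjusted p of 0.00409. The other rises were those of KEAP1, the sensor, and CUL3, the scaffold of the ligase, both at 0.22, with adjusted p of 0.0165 and 0.01. These last genes were named after their values were seen, and neither was called with total counts only. The 3 parts of the ligase that marks NRF2 were thus all slightly higher in RNA under TMM scaling.

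BACH1, a repressor that competes with NRF2 at HMOX1 and similar genes, was at 107, 108 and 112 CPM in control and at 75.3, 90.2 and 90.3 CPM after TGF-β1. Its groups were apart, and it fell by 0.36 on the log2 scale with an SE of 0.07 and an edgeR adjusted p of 0.00233. NFE2L3, a relative of NFE2L2, fell from 31.1, 32.6 and 32.0 CPM to 20.4, 20.3 and 20.4 CPM, a log2 fold change of -0.65 ± 0.06, edgeR adjusted p = 7.4e-06. NFE2L1, the other relative, had a log2 fold change of -0.02 with a 95% interval from -0.14 to 0.10. SQSTM1, the autophagy receptor that binds KEAP1, is uncertain, because most of its counts were listed on an alternate contig.

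Other known targets of NRF2 moved in both directions. Of 30 such genes, 26 were tested, 6 rose and 11 fell, which is 65.4% called beside 44.3% of all genes. With total counts only, 6 were higher and 13 lower, beside 14.4% and 30.9% of all genes. Leaving out single libraries gave 14 to 18 called genes of this list. The median log2 fold change of the 26 was -0.17, beside 0.006 over all genes and 0.03 over the 9 tested genes above. PRDX1, an abundant peroxiredoxin, rose from 641, 604 and 628 CPM to 1047, 1044 and 1024 CPM, a log2 fold change of 0.73 ± 0.05 (SE) at an edgeR adjusted p of 9.5e-07. UGDH, which makes UDP-glucuronate for conjugation and for matrix glycans, rose from 47.6, 46 and 45.2 CPM to 75.8, 76.3 and 76.2 CPM, a log2 fold change of 0.72 ± 0.05 and an adjusted p of 1.3e-06. In both genes the libraries of a group were close together and far from the other group.

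ABCC3, an exporter of glucuronide and glutathione conjugates, was at 59.8, 58.4 and 59.7 CPM in control and at 20.1, 19.1 and 18.4 CPM after TGF-β1. It fell, with a log2 fold change of -1.62 ± 0.06 (SE) at an edgeR adjusted p of 7.3e-09. AKR1B1, the aldose reductase of the polyol pathway, fell from 2349, 2059 and 2237 CPM to 1031, 961 and 1035 CPM, a log2 fold change of -1.13 ± 0.07 and an adjusted p of 1.7e-07. AKR1B1 was more highly expressed than any of the 10 genes on the per-length scale, at 2629.7 ± 165 TPM in control (SD, n = 3). The directions of all named genes in this group held under every alternative that was run.

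**Figure D3:**
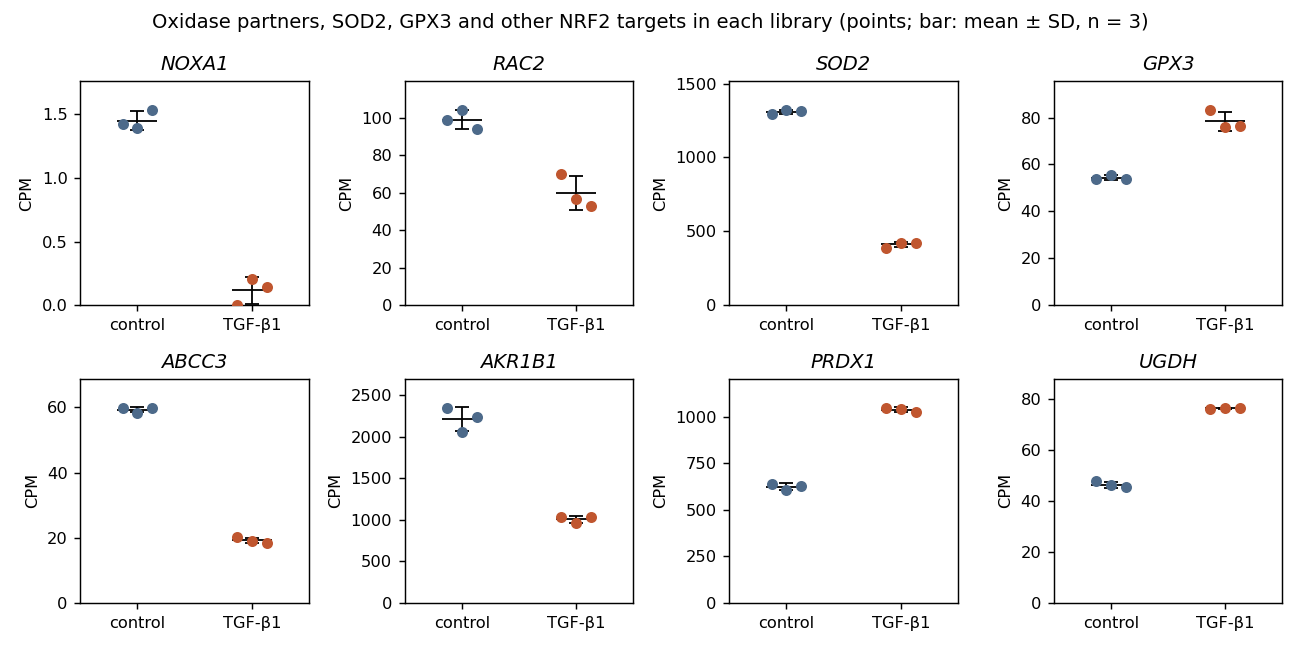
Level in CPM (linear axes from 0) of 2 oxidase partners, SOD2, GPX3 and 4 further NRF2 targets in the 3 control and 3 TGF-β1 libraries, with the mean ± SD as bars. GPX3, PRDX1 and UGDH were higher and NOXA1, RAC2, SOD2, ABCC3 and AKR1B1 lower after TGF-β1, and in none of the 8 genes did the groups overlap. The 8 genes were picked among called genes, so this was likely beforehand. Of all genes tested, 55.6% were apart in either direction.

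Enzymes that remove superoxide and peroxides were compared as a further group. Of 25 genes, 23 were tested, 4 rose and 6 fell, with a median log2 fold change of -0.06, which is 43.5% called beside 44.3% of all genes. With total counts only, 3 were higher and 9 lower, beside 14.4% and 30.9% of all genes. SOD2, the superoxide dismutase of mitochondria, was at 1294, 1319 and 1312 CPM in control and at 390.4, 422 and 422 CPM after TGF-β1. It was 3.18-fold lower, with a log2 fold change of -1.67 ± 0.06 (SE) at an edgeR adjusted p of 3.4e-09, the largest change in this group. The cytosolic enzyme SOD1 had a log2 fold change of -0.02 with a 95% interval from -0.18 to 0.15. TXNRD3, the thioredoxin-glutathione reductase, fell with a log2 fold change of -0.72 ± 0.14 at an adjusted p of 0.0018, and TXNRD2, the mitochondrial form, had -0.16 with a 95% interval from -0.40 to 0.08.

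GPX3, the secreted glutathione peroxidase that the proximal tubule supplies to plasma, rose from 53.9, 55.5 and 53.8 CPM to 83.1, 75.9 and 76.3 CPM. Its log2 fold change was 0.53 ± 0.06 (SE), with an edgeR adjusted p of 2.9e-05. PRDX6, a peroxiredoxin that also repairs phospholipids, rose by 0.27 ± 0.05 on the log2 scale with an adjusted p of 0.00172. Among the peroxiredoxins tested outside the 2 that rose, PRDX2, PRDX3, PRDX4 and PRDX5 had log2 fold changes from -0.16 to 0.08 and were not called.

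Supply and use of glutathione were read from 25 genes, of which 19 were tested, 2 rose and 5 fell, or 36.8% called beside 44.3% of all genes. The median log2 fold change was -0.08. SLC3A2, the heavy chain that carries xCT to the membrane, rose from 82.6, 79.0 and 74.0 CPM to 104, 95.5 and 98.5 CPM, a log2 fold change of 0.34 ± 0.06 (SE) at an edgeR adjusted p of 0.00098. Unlike SLC7A11, its groups did not overlap. GSTP1, a glutathione transferase, rose by 0.32 ± 0.07 on the log2 scale with an adjusted p of 0.00281. GGT1, which breaks down glutathione at the brush border, and OPLAH, which returns 5-oxoproline to glutamate, both had log2 fold changes of -0.58, with adjusted p of 0.00062 and 0.00087. GGT1 has close paralogs, so its value is uncertain. GSS, the enzyme of the step after glutamate-cysteine ligase, fell with a log2 fold change of -0.28 ± 0.06 at an adjusted p of 0.00361, while both ligase subunits were higher. GSS was named after its value was seen. Without TGF-β1 replicate 1, 11 of the 19 genes were called, 3 higher and 8 lower. In that fit more genes were called in general, 7196 of the 15106 tested.

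SLC7A11 is also a target of ATF4, the factor of the amino acid response, so 12 genes of that response were compared. Of these 10 were tested, 3 rose and 2 fell, or 50% called beside 44.3% of all genes, with a median log2 fold change of -0.06. With total counts only, 3 were higher and 4 lower. NUPR1, a small stress protein, rose from 21, 20 and 18 counts to 46, 37 and 29, with a log2 fold change of 0.90 ± 0.21 (SE) at an edgeR adjusted p of 0.00544, and DESeq2 gave an adjusted p of 0.0528. SLC7A5, the leucine transporter that shares the heavy chain SLC3A2, rose from 79.7, 89.5 and 69.0 CPM to 149, 133 and 133 CPM, a log2 fold change of 0.80 ± 0.09 and an adjusted p of 5.6e-05. DDIT4, an inhibitor of mTORC1, fell with a log2 fold change of -0.53 ± 0.07 at an adjusted p of 0.00017. VLDLR had -0.19 ± 0.06 with an adjusted p of 0.0206, and this call was lost without control replicate 1, 2 or 3, at adjusted p of 0.0847, 0.0595 and 0.0507. ATF4 itself had a log2 fold change of 0.06 with a 95% interval from -0.08 to 0.20. Its targets DDIT3 and CHAC1 were not called, at 0.07 and -0.17. CEBPB, the remaining gene that rose, had 0.67 ± 0.09 with an edgeR adjusted p of 0.00018. ASNS, with 4 to 8 counts per library, was under the filter.

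**Figure D4:**
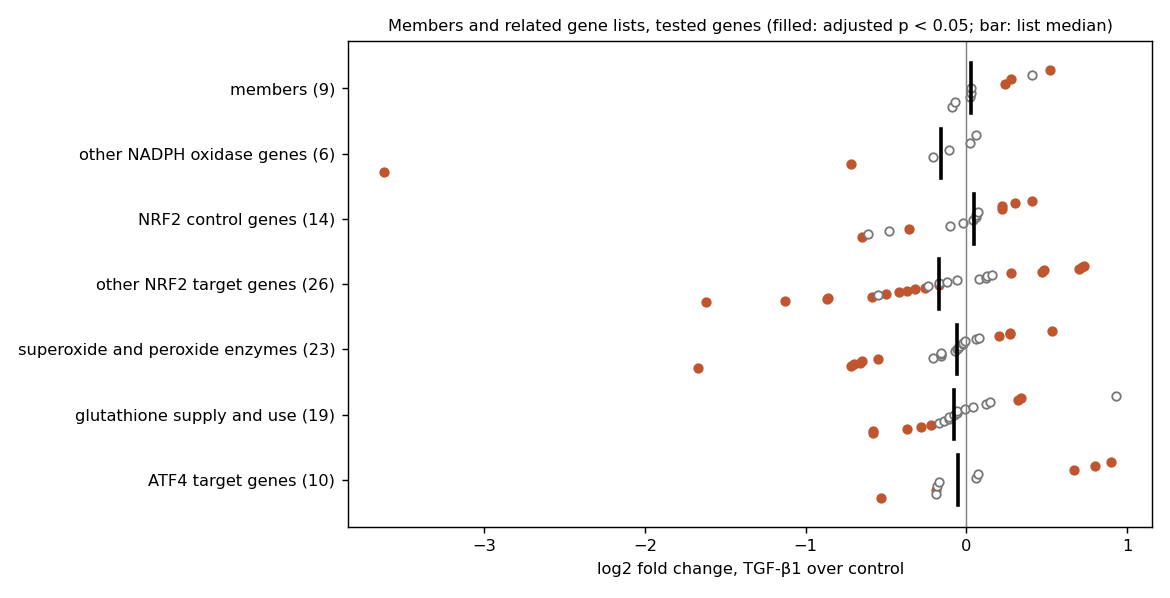
Log2 fold changes, TGF-β1 over control, of the tested genes among the 10 and in 6 related lists, with the number tested in parentheses, filled points for an edgeR adjusted p under 0.05 and a bar at each median. The genes examined here ranged from -0.09 to 0.52, and the NRF2 control genes from -0.65 for NFE2L3 to 0.41 for MAFK. Called genes of the 6 lists together reached from -3.62 for NOXA1 to 0.90 for NUPR1. The lists together hold more genes, so their range is not comparable with that of the members.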

How the data were processed

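Poly(A) RNA of HK-2 cells was sequenced on an MGI platform. Per the labels, the build was hg38, and featureCounts 2.0.1, DESeq2 1.16.1 and CASAVA are named in the submitters' processing notes; the aligner is not given in the sources used here. The authors deposited raw counts per gene and TPM and FPKM values computed from them, of which FPKM were not used. The deposited TPM values differed from TPM recomputed from the deposited counts by at most 3.6e-06. Each table held 42095 entries and 7 broken records, which were rejoined. Unnamed loci, with 0.396% to 0.464% of counts, were left out of tests and library sizes.

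Libraries were grouped by the treatment label. Counts were filtered with filterByExpr (minimum count 10), scaled with TMM (factors 0.9585 to 1.046) and compared with the edgeR 4.0.16 quasi-likelihood F test, two-sided, with Benjamini-Hochberg adjustment over 14860 genes and a threshold of 0.05. CPM used TMM-scaled library sizes. Scripts were tested on simulated data. Limits set by 0 counts cover counting error only.

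All 10 members were named, and from each of 6 lists (other NADPH oxidase genes, NRF2 control genes, other NRF2 targets, superoxide and peroxide enzymes, glutathione genes, ATF4 targets) the 2 called genes with the largest rise and the 2 with the largest fall. Genes set beside these, such as RAC1, POLDIP2, CYBC1, NFE2L1, SOD1, TXNRD2 and ATF4, were added for their relation to a named gene after their values were seen. Some genes of these lists and of the marker lists are not reported here and are left out of their counts. The members and lists were chosen with earlier results of these data known. Promoter letters came from a RefSeq table of GRCh38.p14. Alternatives were DESeq2 1.42.0, limma-voom (limma 3.58.1), RLE size factors, library totals with no scaling factor (total counts only), no filter beyond 1 count, a mean of at least 50 counts, a replicate block, a pseudocount of 1 TPM for the ratio and leaving out each library. R 4.3.3, Python 3.11.15, pandas 2.3.3 and scipy 1.17.1 were used.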

Additional observations from a re-analysis of the deposited data

How the results depend on the processing

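Of 479 values of 37 genes under 13 alternatives, 456 kept sign and call, 9 changed sign, 9 lost a call and 5 gained one. The 37 genes were the tested members, the genes picked as the largest calls of the 6 lists, and the TGF-β response genes. Picked genes were likely to keep their calls, so the pooled count does not describe the members. Outside the members only NUPR1 and VLDLR changed, and most changes were in the members. The changes of sign were in 3 uncalled genes. Scaling by total counts only gave -0.09 for CYBA, -0.08 for NQO1 and -0.08 for SRXN1, and a mean of at least 50 counts gave -0.00036 for CYBA. Leaving out each library gave -0.07 (TGF-β1 replicate 1 left out) to 0.09 for CYBA, which was at -0.027 if control replicate 3 was left out. It gave -0.02 (TGF-β1 replicate 1 left out) to 0.07 for NQO1, which was at -0.0053 if control replicate 2 was left out, and -0.0028 (control replicate 3 left out) to 0.05 for SRXN1. Leave-one-out fits gave 5333 to 7196 called genes, 2 to 4 called members, 6 to 11 called glutathione genes and a change of the GCLM-to-GCLC ratio from -0.028 (without control replicate 2) to 0.09, with -0.0048 without TGF-β1 replicate 3. Keeping only names with 1 entry, an alternative chosen after seeing the data, left the number of calls in the 6 lists as it was.

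The labels give both groups the replicate numbers 1 to 3. Deviations from the group means correlated at 0.111, -0.012 and 0.076 between libraries of the same number. Between libraries of different numbers the values ran from -0.149 to 0.088. The highest value of all was that of the replicates numbered 1, while control replicate 2 correlated best with TGF-β1 replicate 1, at 0.044. All values were small, and the numbers were not taken as pairs, though these values do not settle the pairing. With the replicate block 6790 genes were called, and 4 members instead of 3, the added one being SLC7A11 at 0.39 with an edgeR adjusted p of 0.02.

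Genes with few counts, such as HMOX1, NUPR1 and NOXA1, rest on less precise values than TXNRD1 or CYBA, and NOX4 could not be measured at this depth.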

Other observations

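Some genes of the lists had a second entry on an alternate contig, an extra copy of part of the reference. On chromosome 5, SQSTM1 had 26 to 34 counts in the control libraries and 20 to 22 in the TGF-β1 libraries. On the copy it had 1541, 595 and 317 in the controls, and 340, 1613 and 263 with TGF-β1. SESN2 had 0 counts in every library on chromosome 1 and 15 to 157 on the copy. The copy of SQSTM1 ranged widely within each group, and no direction is given for these genes. ABCC1 was split as well, with 213 to 421 counts on chromosome 16 and 375 to 674 on the copy.

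CBS, the first enzyme of the transsulfuration path from homocysteine to cysteine, had 107, 136 and 98 counts in the controls. The TGF-β1 libraries had 380, 160 and 133. TGF-β1 replicate 1, the library with the lowest SLC7A11 level of its group, had the highest CBS count. This is 1 library, and a relation between CBS and SLC7A11 was not tested. The log2 fold change was 0.93 with a 95% interval from -0.03 to 1.89 and an edgeR adjusted p of 0.105. CBS was chosen after its values were seen.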
